A study of Homo sapiens with 2 samples.

Results

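The 7 human genes described here encode the phosphofructokinase step of glycolysis: the 3 subunits of phosphofructokinase (PFKL, PFKM and PFKP) and the 4 PFKFB enzymes (PFKFB1, PFKFB2, PFKFB3 and PFKFB4) that set the level of its activator. They were chosen by gene symbol, and every annotated probe with a value on both arrays is described. Of 12 annotated probes, 8 had a value on both arrays. They measured 6 of the 7 genes, among 11579 named genes and 19665 probes with a value in the series. The genes were selected because earlier results of the same data showed several of them to differ, so the values below are a description and no test is attached to them.

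The cells were Huh7, an established human hepatocellular carcinoma line. A lentivirus with a short hairpin RNA that targets CD133 had been used to infect 1 group (shCD133, 1 array), and the lentiviral vector had been used for the other (vector, 1 array). CD133, encoded by PROM1, is a surface glycoprotein by which stem-like liver cancer cells are often recognised. The labels do not say whether the vector carried a control hairpin, or how many hairpins or cultures stood behind an array. Total RNA was amplified to biotin-labelled cRNA and hybridised to Illumina bead arrays, whose values are the brightness of single probes. Values are the authors' log2 intensities, differences are shCD133 minus vector on the log2 scale, and a gene with several probes takes its brightest one. Neither group had a second array, so no value has a replicate error or a p-value.

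Phosphofructokinase uses ATP to turn fructose 6-phosphate into fructose 1,6-bisphosphate, the committed step of glycolysis, and works as a tetramer of L, M and P subunits. It is inhibited by ATP and citrate and strongly activated by fructose 2,6-bisphosphate. That activator is made and removed by the PFKFB enzymes, which carry a kinase and a bisphosphatase on a single polypeptide and differ in the balance of these activities. In the liver, glucagon acts through phosphorylation of the liver enzyme PFKFB1 to lower fructose 2,6-bisphosphate, which slows glycolysis and favours gluconeogenesis. Many tumour cells use the inducible isoform PFKFB3, and PFKFB3 and PFKFB4 are known targets of hypoxia-inducible factor.

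PFKFB4, PFKFB3 and PFKL were the members at least 2-fold higher with shCD133, and their promoter sequences are shown because these 3 genes differed in the same direction. Each is the 250 bases before a RefSeq start site in GRCh38.p14, 5′ to 3′ on the gene's strand. Capitals mark ACGTG and GCGTG, the core letters known to be bound by hypoxia-inducible factor, searched on both strands, so that a capital CACGT or CACGC is a match on the other strand. A capital CACGTG is also the E-box of MYC-type factors and holds ACGTG on each strand.
PFKFB4 promoter, chr3:48556804-48557053, minus strand: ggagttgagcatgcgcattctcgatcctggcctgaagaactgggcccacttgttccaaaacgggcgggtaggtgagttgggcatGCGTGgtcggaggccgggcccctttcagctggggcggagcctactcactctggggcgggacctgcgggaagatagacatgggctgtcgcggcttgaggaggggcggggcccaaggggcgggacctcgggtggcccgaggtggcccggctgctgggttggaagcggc
PFKFB3 upstream promoter, chr10:6144671-6144920, plus strand: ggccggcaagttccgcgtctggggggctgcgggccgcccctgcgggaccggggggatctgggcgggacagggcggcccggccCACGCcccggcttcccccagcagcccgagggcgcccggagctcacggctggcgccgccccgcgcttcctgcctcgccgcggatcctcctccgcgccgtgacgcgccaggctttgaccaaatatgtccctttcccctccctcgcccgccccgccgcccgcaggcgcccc
PFKFB3 internal promoter, chr10:6202682-6202931, plus strand: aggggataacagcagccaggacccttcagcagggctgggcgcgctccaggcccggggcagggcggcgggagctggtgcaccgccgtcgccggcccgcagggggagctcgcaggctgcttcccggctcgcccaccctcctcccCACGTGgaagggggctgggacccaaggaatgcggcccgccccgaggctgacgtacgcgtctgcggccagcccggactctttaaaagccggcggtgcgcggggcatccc
PFKL promoter, chr21:44299803-44300052, plus strand: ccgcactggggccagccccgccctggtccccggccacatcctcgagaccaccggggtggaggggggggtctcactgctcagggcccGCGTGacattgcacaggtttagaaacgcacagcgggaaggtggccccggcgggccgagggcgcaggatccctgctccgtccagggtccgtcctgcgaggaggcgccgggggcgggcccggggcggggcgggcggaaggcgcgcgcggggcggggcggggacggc

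Each of these 4 windows held at least 1 of the motifs. The PFKFB4 window, which lies inside the annotated span of the gene, held GCGTG once, beginning 166 bases before the start site. The PFKL window held GCGTG once, 164 bases before the start. The upstream PFKFB3 window held it once on the other strand, 168 bases before the start. The internal PFKFB3 window, which also lies inside its gene, held a single CACGTG, which begins 108 bases before its start. The motifs are common: ACGTG was present in 18.5% of 35116 promoter windows of the same length, GCGTG in 32.2%, either in 43.2% and CACGTG in 6.34%. The 4 windows shown were 68.0% to 79.2% guanine or cytosine, and the 35116 windows were not matched to them for this content. RefSeq windows were matched for 6 of the 7 genes, 17 windows in all, and 7 of the 17 held either motif. Of the 7 PFKM windows 1 held ACGTG. Of the 4 PFKP windows 1 held ACGTG once and 1 held GCGTG 3 times, beginning 61, 19 and 13 bases before its start. Neither PFKFB1 window held a motif. A match is a stretch of letters and does not show binding.

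Among the PFKFB enzymes, PFKFB4 and PFKFB3 were higher with shCD133, while PFKFB2 was too dim for a comparison and PFKFB1 had no value. PFKFB4, first described in testis and found in many tumours, had a log2 intensity of 11.69 with shCD133, against 9.18 with the vector, on probe ILMN_1653292 (transcript NM_004567). That is a difference of 2.51, or 5.69-fold on the unlogged scale (3299 against 579.5). Only 3 of the 11579 named genes had a larger positive difference. No other gene among the 578 of like mean level exceeded it, and the nearest of them was DDIT4 at 2.51. PFKFB4 spans chr3:48517684-48563136 (GRCh38.p14), and none of the other 1156 genes of like genomic length, 38.6 to 54.3 kb, had a larger difference.

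PFKFB3, whose kinase activity far exceeds its bisphosphatase activity, was measured by 2 probes to the same transcript, NM_004566. On ILMN_2186061, the brighter one, the log2 intensity was 12.74 with shCD133, against 11.09 with the vector. The difference on that probe was 1.65, or 3.15-fold. On ILMN_1660847 the log2 intensity was 10.05 with shCD133, against 8.75 with the vector, a difference of 1.31, or 2.47-fold. Both probes were thus more than 2-fold higher with shCD133, and their differences lay 0.35 apart. A gap of 0.38 is the spread given by probes of the same gene at these levels across the arrays. This spread was taken from 2907 genes with more than 1 probe. It covers measurement and transcript differences and leaves out variation between cultures. PFKFB3 ranked 24th from the highest of all named genes. It is a long gene of 181.7 kb (chr10:6144921-6326637), and none of the other 1156 genes in the bin of the longest genes, out of 10 bins by length, had a larger difference. In that bin 0.519% of genes were at least 2-fold higher and the median difference was -0.27. The length is the annotated span from the upstream start of PFKFB3. Which start the cells used was not tested, and the bin depends on it.

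PFKFB2, the isoform known from heart and activated by insulin signalling through AKT, was dim on both arrays. Its probe ILMN_1796560 (NM_006212) read 7.13 with shCD133, against 7.69 with the vector, a difference of -0.56. ILMN_1723436 (NM_001018053) read 7.19 with shCD133, against 7.54 with the vector, a difference of -0.35. The lowest value in the table is 6.65, so both PFKFB2 probes lay within 0.54 of it with shCD133 and 1.04 or less above it with the vector. Signal and background could not be told apart there, and no fold is given. Another PFKFB2 probe (ILMN_2385298) was null on both arrays. PFKFB1, the liver isoform on chromosome X (chrX:54932961-54998789), has 1 annotated probe (ILMN_1741600), and it was null on both arrays. The sources used here do not give the filter that left these entries null, so no level of PFKFB1 can be stated.

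**Figure D1:**
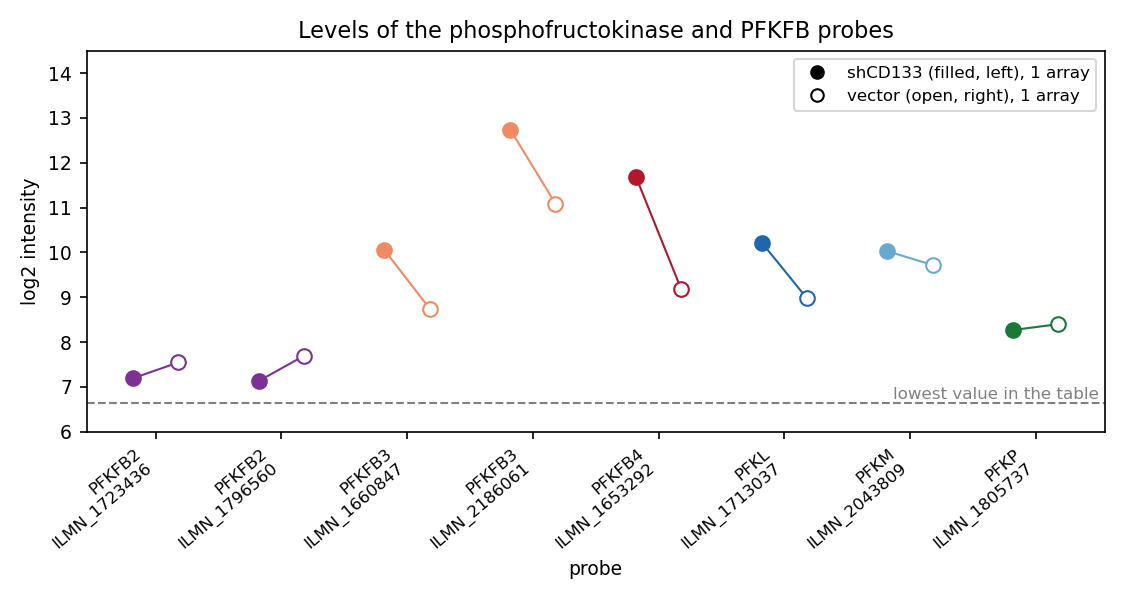
Log2 intensity of the 8 measured probes on the shCD133 array (filled, left) and the vector array (open, right), joined per probe. The dashed line is the lowest value in the table, 6.65. Both PFKFB3 probes, PFKFB4 and PFKL sit at least 1 log2 unit higher with shCD133, and the PFKFB2 probes lie near the lowest value. Levels of different probes are not comparable with each other.

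Among the phosphofructokinase subunits, the liver subunit was higher with shCD133, and the muscle and platelet subunits lay close to the median gene. PFKL, the main subunit of liver (chr21:44300053-44327373), read 10.22 with shCD133, against 8.98 with the vector, on ILMN_1713037 (NM_002626). The PFKL difference was 1.25, or 2.37-fold (unlogged 1194 against 503.4). It ranked 105th from the highest, and 4 of the other 578 genes of like mean level had a larger difference. The other PFKL probe, ILMN_2287253, annotated to transcript NM_001002021, was null on both arrays, so the PFKL value rests on a single probe.

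PFKM, the subunit that makes up the muscle enzyme (chr12:48105353-48146404), read 10.03 with shCD133, against 9.72 with the vector. Its difference was 0.31, or 1.24-fold, and 32.2% of named genes had a larger one. PFKP, the platelet subunit (chr10:3067548-3136805), read 8.27 with shCD133, against 8.40 with the vector. Its difference was -0.13, and 67.8% of named genes had a larger one. A second PFKP probe, annotated to the mRNA AK126153 and not to a RefSeq transcript of the gene, was null on both arrays. The probe spread at these levels was 0.30, close to the difference of PFKM and larger than that of PFKP.

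Counted together, 3 of the 6 measured members were at least 2-fold higher with shCD133 and 0 were at least 2-fold lower. Over all named genes, 2.08% were at least 2-fold higher and 8.26% at least 2-fold lower. By probes, 4 of 8 were at least 2-fold higher and 0 at least 2-fold lower, where 1.96% of all named probes were higher and 7.65% lower by that much. Since these genes were chosen with their differences known, the counts describe the members and are not read against that background. The median difference of the members was 0.78, and that of all named genes was 0.11. The order of the differences ran PFKFB4, PFKFB3, PFKL, PFKM, PFKP and PFKFB2. Of the gaps between neighbours in this order, that between PFKFB4 and PFKFB3 (0.86) was 2.70 times the spread expected from probes of the same gene. That between PFKL and PFKM (0.94) was 2.19 times this spread. The gaps between PFKFB3 and PFKL (0.41, 1.08 times) and between PFKM and PFKP (0.44, 1.03 times) were close to it. The spread was taken within genes on the same arrays. It leaves out variation between cultures, so these ratios do not show which members differ from each other. PFKFB2 is listed last by its deposited values, and no gap is given for it because its signal was not told from background.

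**Figure D2:**
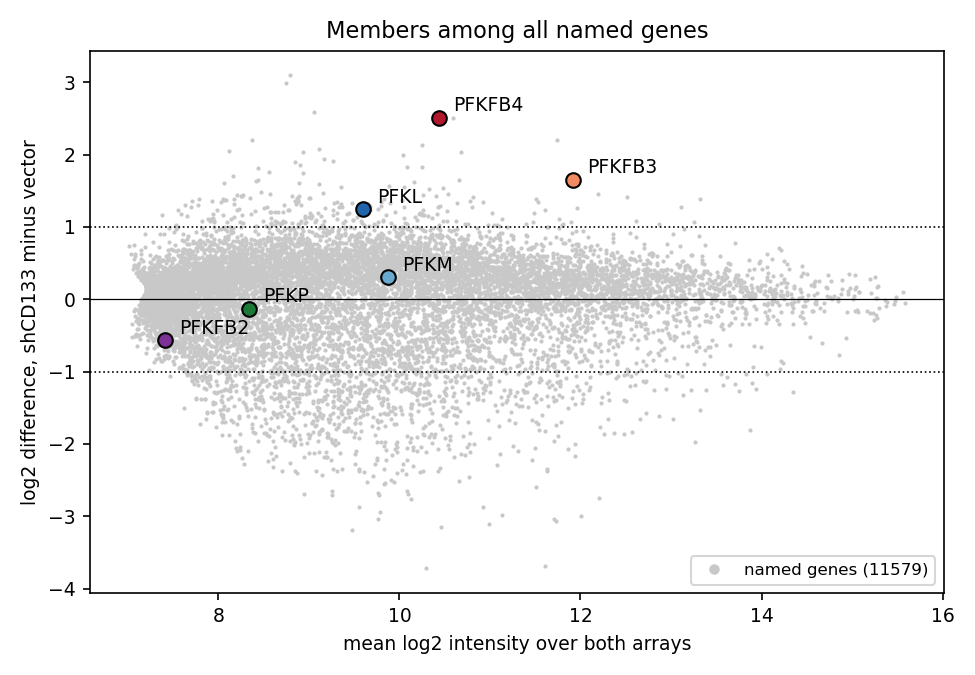
Log2 difference (shCD133 minus vector) against mean log2 intensity over both arrays for 11579 named genes (grey) and the 6 measured members (coloured). Dotted lines mark a 2-fold difference in each direction. PFKFB4 (2.51), PFKFB3 (1.65) and PFKL (1.25) lie above the upper line, while PFKM, PFKP and PFKFB2 lie between the lines.

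The targeted gene and the cell identity were checked on the same arrays. PROM1 read 10.83 with shCD133, against 13.58 with the vector, a difference of -2.75. Of 10 hepatocyte-lineage markers 8 were measured, with a median difference of 0.18. Among them albumin (ALB) read 15.47 with shCD133, against 15.48 with the vector, APOA1 differed by 0.63 and the fibrinogen chain FGB by -1.32 (its other probe by -0.71). The hepatic transcription factor HNF4A had no value. Of 14 markers of other cell types 6 were measured, with a median difference of -0.02 and summed unlogged intensities of 5329 with shCD133 and 4725 with the vector. The monocyte marker CD14, which hepatocytes also express, was the only one at least 2-fold higher (1.60), followed by the collagen gene COL1A1 (0.74). The others lay near 0 on their brightest probe: the macrophage marker CD68 at -0.09, PECAM1 at -0.16, PDGFRB at 0.03 and EPCAM at -0.06. Other probes ranged up to 0.42 for CD68 and 0.54 for EPCAM. PECAM1 (7.48 with shCD133, against 7.64 with the vector) and PDGFRB (7.25 against 7.22) read near the lowest value of 6.65. EPCAM was the brightest of these markers (11.52 with shCD133, against 11.58 with the vector) and thus the largest part of both sums, though it was not higher with shCD133. CD14 read 9.92 with shCD133, against 8.32 with the vector. Levels of different probes are not comparable, so the sums are not shares of cells. The defining leukocyte and endothelial genes PTPRC, CD3E, VWF and CDH5 had no value. Both arrays were from an established cell line. The marker values are therefore read as levels in Huh7 cells, and no share of other cell types was estimated.

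The rest of the glycolytic chain was mostly higher with shCD133 by smaller amounts. Of 25 other glycolysis enzymes 18 were measured, and 17 of these had a positive difference, as had 59.2% of all named genes. In this list 3 were at least 2-fold higher and 0 at least 2-fold lower, against 2.08% and 8.26% of all named genes. The list median was 0.38. ALDOC, an aldolase that splits the product of phosphofructokinase, differed by 1.26. PGK1, which makes the first ATP of the pathway, differed by 1.05 on its brighter probe and its probes ranged up to 1.52. The muscle-type enolase ENO3 differed by 1.03, with its other probe at 0.97. On the brightest probe of each gene, the differences of PFKFB4 and PFKFB3 were larger than that of any of these 18 enzymes. That of PFKL (1.25) was just below ALDOC. The dimmer PGK1 probe (1.52) exceeded PFKL and the dimmer PFKFB3 probe (1.31). Of the 18 enzymes, 6 read above a log2 intensity of 13 on both arrays (ENO1, LDHA, GAPDH, ALDOA, TPI1 and PKM). Whether differences are narrowed at such bright levels was not tested, so the smaller amounts of these 6 hold only for the deposited scale.

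Enzymes that work against phosphofructokinase or run the path backwards were mostly higher with shCD133 too. Of 9 listed, 6 were measured, with a median of 0.54, and 5 had a positive difference, as had 59.2% of all named genes. Here 1 was at least 2-fold higher and 0 were at least 2-fold lower, against 2.08% and 8.26% of all named genes. FBP1, the bisphosphatase that reverses the phosphofructokinase reaction, read 9.16 with shCD133, against 8.23 with the vector, a difference of 0.93. TIGAR, a bisphosphatase that removes fructose 2,6-bisphosphate, differed by -0.24 (named outside the rule, after its value was seen). Mitochondrial PEP carboxykinase PCK2 differed by 1.34, and its probes ranged from 1.24 to 1.47. FBP2 was not measured.

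Among glucose and lactate transporters 6 of 13 were measured, with a median of 0.47. Of these, 1 was at least 2-fold higher and 1 at least 2-fold lower, against 2.08% and 8.26% of all named genes. The glucose transporter SLC2A1 differed by 1.45 (11.26 with shCD133, against 9.81 with the vector). The monocarboxylate transporter SLC16A7 differed by -1.58 on its brighter probe and by -0.33 on another.

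Kinases known to phosphorylate PFKFB enzymes, listed together with regulatory subunits of AMPK, had a median of -0.06 over 11 of 15 measured. Against 2.08% and 8.26% of all named genes, 0 of these were at least 2-fold higher and 1 was at least 2-fold lower. That gene was PRKAA1, a catalytic subunit of the energy sensor AMPK, which activates PFKFB2 and PFKFB3. It read 9.19 with shCD133, against 10.40 with the vector, a difference of -1.22, and its other probe differed by -1.21. PRKAB2, a regulatory subunit of AMPK, differed by -0.77. Of 3 genes for turnover of PFKFB3 and PFKP protein, BTRC, a subunit of a ubiquitin ligase for PFKFB3, differed by -1.39 (7.06 with shCD133, near the lowest value, against 8.45 with the vector). FZR1, another ligase component for PFKFB3, differed by 0.52, and TRIM21, a ligase for PFKP, by 0.70. These are transcript levels and say nothing of protein or phosphorylation.

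Hypoxia-inducible targets outside glycolysis had a median of 0.54 over 16 of 20 measured, with 5 at least 2-fold higher and 0 at least 2-fold lower. They were DDIT4, an inhibitor of mTOR signalling (2.51), the collagen cross-linking enzyme LOX (1.83), NDRG1 (1.32), the mitophagy receptor BNIP3 (1.27) and ANKRD37 (1.22). Of all named genes 2.08% were at least 2-fold higher, 8.26% at least 2-fold lower and 59.2% had a positive difference. In this list 11 of the 16 had a positive difference. Among the lower ones, named after their values were seen, the oxidoreductase ERO1A differed by -0.98, just short of 2-fold, the carbonic anhydrase CA12 by -0.52 and the peptide hormone gene ADM by -0.32. The oxygen-sensing genes themselves differed less. Of 10 listed, 7 were measured and 0 were at least 2-fold different in either direction, with a median of 0.18. HIF1AN, which hydroxylates and inhibits HIF, differed by 0.56 and the prolyl hydroxylase EGLN1 by 0.43. HIF1A, the oxygen-regulated subunit, differed by -0.42 (named outside the rule, after its value was seen).

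**Figure D3:**
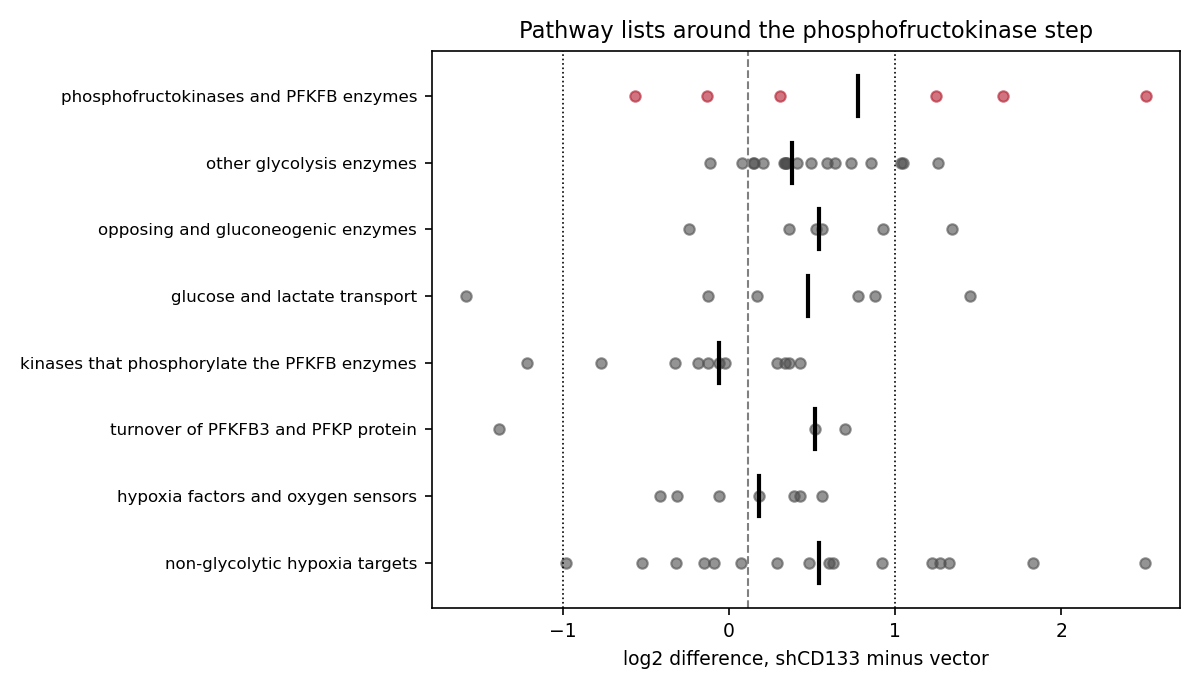
Log2 difference (shCD133 minus vector) of each measured gene in the members (top, red) and 7 lists around the phosphofructokinase step (grey). Black bars are list medians, the dashed line is the median of all named genes (0.11) and dotted lines mark a 2-fold difference. The medians run between -0.06 for the kinase list, which includes regulatory AMPK subunits, and 0.78 for the members, which were chosen with their differences known.

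By size of difference, the genes nearest to PFKFB4 were DDIT4 (gap 0.0033), TMSB15A (0.081) and the elastase inhibitor PI3 (0.312). Those nearest to PFKFB3 were TNFAIP6, IRX3 and DUOXA2, with differences of 1.64, 1.64 and 1.63. Those nearest to PFKL were TDO2, HOXC13 and RGCC, each at 1.25. Several of these read close to the lowest value of 6.65 with the vector: PI3 at 7.27, DUOXA2 at 7.60, TDO2 at 7.61, TNFAIP6 at 7.62 and TMSB15A at 7.76. Background there compresses a difference, so their likeness to a member holds only for the deposited scale. DDIT4, IRX3, HOXC13 and RGCC read 8.94 or more with the vector. Likeness here is the gap between differences over 2 arrays.

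The processing settings left the order of the members as it was. In all 7 settings (the deposited values and 6 alternatives), PFKFB4 had the highest difference, followed by PFKFB3, PFKL, PFKM, PFKP and PFKFB2. Centring takes the same constant from every gene, so it could not have changed this order. The mean over probes could move only PFKFB3 and PFKFB2. The place of PFKFB2 rests on signal that was not told from background. The difference of PFKFB4 ranged from 2.28 to 2.71, and its rank among all named genes from 3 to 9. PFKFB3 ranged from 1.48 to 1.92 and PFKL from 1.05 to 1.42, so these 3 remained at least 2-fold higher in each setting. Their ranks moved more, from 12 to 104 for PFKFB3 and from 96 to 193 for PFKL. PFKFB3 was highest (1.92) with the trend on gene length removed. PFKM ranged from 0.06 to 0.34 and PFKP from -0.30 to -0.06. PFKFB2 ranged from -1.23 to -0.46, and passed 2-fold lower only with background taken off at the smaller of 2 offsets, an alternative added after the data had been seen.

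**Figure D4:**
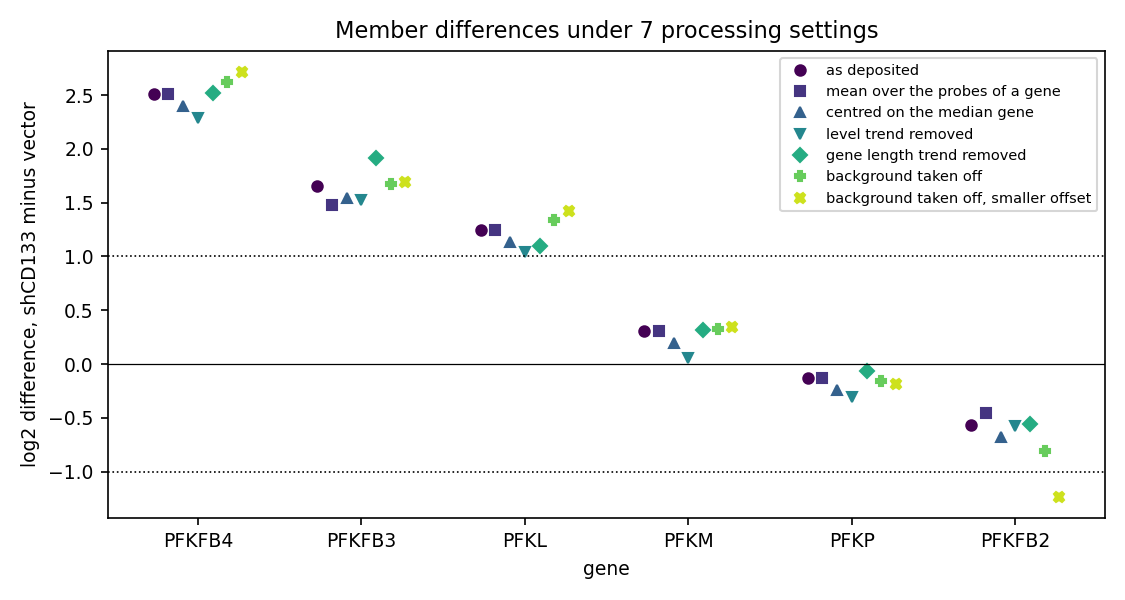
Log2 difference (shCD133 minus vector) of the 6 measured members under 7 processing settings, with a marker per setting. Dotted lines mark a 2-fold difference. PFKFB4, PFKFB3 and PFKL lie above the upper line in each setting, and PFKFB2 is below the lower line in 1 setting, at -1.23.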

How the data were processed

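The authors' deposited values were used as log2 intensities, with the log base read from their range (6.65 to 15.6). GenomeStudio 2011.1 is named in the submitters' processing notes, with no role. Sorted values of both arrays differed by at most 0.0004, as after quantile normalization. Of 47323 probes, 27658 were null on both arrays. A second deposited table has 4 value columns headed by names that match neither sample's labels; they were not used, so no detection call was available.

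Probes were named from a 2016 platform annotation, updated by gene identifier through the RefSeq table of GRCh38.p14 (15197 of 15205 named probes matched). The brightest probe stood for a gene. The threshold was 2-fold (log2 difference of 1). The spread between probes came from the 2 brightest probes of each gene and was 0.33 per probe. Alternatives were the mean over probes, centring, removal of trends with level (20 bins) and gene length (10 bins), background taken off with an offset of 50 or 10 (the latter added after seeing the data), a 1.5-fold threshold and a minimum mean level of 8.

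The members and gene lists were chosen with earlier results of these data known. Genes were named by rule: every member probe, PROM1, each list's members at least 2-fold different plus its 2 largest differences, and the 3 genes nearest in difference to each member past 2-fold. Counting was tested on simulated data. With 1 array per group, no depth or precision beyond the number of arrays can be given. Python 3.11.15, pandas 2.3.3 and numpy 2.4.6 were used.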

Additional observations from a re-analysis of the deposited data

How the results depend on the processing

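No paired analysis was possible because each group had only 1 array. Under the alternatives, the members at least 2-fold higher numbered 3 in each, the 1.5-fold threshold included. The members at least 2-fold lower numbered 0, except for 1 with background taken off at the smaller offset, where PFKFB2 differed by -1.23. PFKFB2 lies near the lowest value of the table, where that subtraction stretches differences. The count over all named genes varied more: 241 were higher and 956 lower as deposited, 138 and 1263 with the level trend removed, 367 and 1170 with background taken off, and 621 and 1436 at the smaller offset. The share of higher genes among those 2-fold different was 20.1% as deposited, 9.85% with the level trend removed and 30.2% at the smaller offset. At 1.5-fold, 12.3% of named genes were higher and 16.3% lower. Of 18 list counts, 9 moved at the 1.5-fold threshold and 1 when genes under a mean level of 8 were left out. A move is a change by over 1.5 times, or any change to or from 0. Without a replicate array, no difference can be separated from variation between cultures.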

Other observations

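Genes that lie beside the members were compared in the same way. Within 500 kb of PFKFB4, 25 other named genes were measured, with a median difference of 0.27 and a range from -0.38 (PRKAR2A) to 0.84 (NCKIPSD), and none was at least 2-fold different. Around PFKFB3, 5 genes ranged from -1.02 (RBM17) to 0.45 (ASB13). Around PFKL, 10 genes ranged from -1.14 (AIRE) to 0.70 (GATD3). Of these 40 neighbours 0 were at least 2-fold higher and 2 (RBM17 and AIRE) at least 2-fold lower, where 2.08% of all named genes were higher and 8.26% lower by that much. YOD1, a deubiquitinase gene whose span (chr1:207043849-207053116, GRCh38.p14) lies inside that of PFKFB2 (chr1:207034416-207081027), differed by -1.48. These neighbours were named after their values were seen.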
